A study of Mus musculus with 12 samples.

Results

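The change of the transcriptome between 12 and 24 h of forced SOX7 expression was followed in mouse haemogenic endothelium made from embryonic stem cells. The members were chosen by treatment and time alone: 2 libraries of cells treated with doxycycline (Dox) for 24 h and 2 of cells treated for 12 h, out of 12 libraries in all. Of 41128 genes in the count table, 15347 had enough counts to be tested. All cells came from iSox7, an embryonic stem cell line derived from Ainv18 in which Dox switches on a Sox7 transgene. FLK1+ cells were sorted from embryoid bodies, cultured on gelatin in blast medium with VEGF, IL6 and D4T conditioned medium, and then left with or without 1 µg/ml Dox for 6, 12 or 24 h, with 2 libraries per group. The groups used here are iSox7 cells after 24 h with Dox and after 12 h with Dox, and iSox7 cells kept without Dox and harvested at 24 h and at 12 h. The untreated cells carry the same transgene, uninduced, and every library comes from this 1 line, so effects of Dox itself and of SOX7 cannot be told apart. The labels do not say that the 2 libraries of a group came from separate cultures, so what the p-values measure is the spread between libraries that may be technical copies.

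Haemogenic endothelium is the endothelium from which blood cells bud in the embryo, in a step called the endothelial-to-haematopoietic transition (EHT). RUNX1 is the transcription factor required for that step. It switches on blood genes and, through GFI1 and GFI1B, helps to switch endothelial genes off. SOX7, SOX17 and SOX18 are related SOX-F factors of endothelium, and the title of the series concerns suppression of RUNX1 target genes by SOX7 during EHT. The time course asks which genes still moved once SOX7 had been on for 12 h, and whether they moved as they did in untreated cells over the same hours.

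Levels are given as CPM, the reads of a gene over the effective size of its library on a common scale. A change is the log2 ratio of 24 h over 12 h with its standard error (SE), and a gene is said to have risen or fallen where its adjusted p (edgeR's quasi-likelihood test, Benjamini-Hochberg over all 15347 genes) was under 0.05. The 4 Dox libraries held 14109804 to 35250074 counts, and in both Dox groups replicate 1 was the deeper library. Sox7 (chr14:63943674-63950732, plus strand, GRCm38) had 337 and 331 CPM at 24 h with Dox and 379 and 376 CPM at 12 h with Dox, against 52.5 and 52.1 CPM at 24 h without Dox and 55.6 and 68.8 CPM at 12 h without Dox. All 4 Dox libraries thus stood far above all 4 untreated ones, and the counts do not separate the transgene from the gene's own transcripts. With Dox its level fell slightly, with a log2 change of -0.18 ± 0.06 (adjusted p = 0.0438); the call was lost whichever of the 4 libraries was left out, with adjusted p up to 0.193. Sox18 fell (-0.44 ± 0.06, adjusted p = 8.24e-06), and Sox17 had a change of 0.19 ± 0.07 that did not pass the test (adjusted p = 0.0626). It was called under upper-quartile scaling (adjusted p = 0.0412) and without Dox 24 h replicate 1 (adjusted p = 0.0276). The labelled cell type was checked against its markers: the defining genes Cdh5, Kdr and Pecam1 of endothelium and Runx1 of its haemogenic form had at least 152 CPM in all 4 Dox libraries, and the 10 listed pluripotency genes together had 6.5 to 8.69 CPM at 24 h with Dox and 6.23 to 6.42 CPM at 12 h with Dox. The listed smooth muscle and mesenchyme genes together had 9503 to 9547 CPM at 24 h with Dox and 7373 to 8092 CPM at 12 h with Dox. The check thus does not show that the cultures held a single cell type. In bulk samples such as these, fewer cells of a type and less RNA per cell cannot be told apart.

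Between 12 and 24 h with Dox, 1203 genes rose and 918 fell, together 13.8% of all tested genes, with 7.84% higher and 5.98% lower. The counts with Dox given below for each list stand against these shares. Most of these changes were small: the median size among them was 0.348 on the log2 scale, and 126 changed at least 2-fold, of which 100 rose and 26 fell. The share of rises among the calls was 56.7%, and 45.7% when the deposited RPKM values with a pseudocount of 0.1 were tested instead. Without Dox, 3440 genes (22.4%) changed over the same hours, 1875 up (12.2%) and 1565 down (10.2%), and 404 of them changed at least 2-fold, 386 up and 18 down.

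Much of the course with Dox ran in the same direction as the course without it. Of the genes that rose with Dox, 778 also rose without it, which is 64.7% of the rises with Dox and 41.5% of those without. Of the genes that fell with Dox, 541 also fell without it, 58.9% of the falls with Dox and 34.6% of those without. In these genes called in both courses the median ratio of the 2 log2 changes, with Dox over without, was 0.939. Across all 15347 genes, which are not independent, the 2 courses had a Pearson correlation of 0.431. The genes whose course differed between the arms were tested in the same model. The difference, the course with Dox minus the course without, was called for 185 genes (1.21%): 29 with a higher course under Dox (0.189%) and 156 with a lower one (1.02%). Of those 156 genes, 83 rose without Dox and were not called with it, 37 rose in both, 16 fell with Dox while they rose without, and 20 fell with Dox and were not called without. The lower courses under Dox therefore belonged mostly to genes that rose in untreated cells. The counts of differences given below for each list stand against 0.189% higher and 1.02% lower over all genes. Those without Dox stand against 12.2% higher and 10.2% lower. In the list counts given here, where a list had 0 calls in a direction, at most 3 of its genes reached an unadjusted p under 0.05 in that direction in either course, and at most 1 was called by DESeq2. Leaving out Dox 12 h replicate 1 gave 1052 calls with Dox and 65 for the difference, the lowest of these fits, while leaving out untreated 12 h replicate 1 gave 274 for the difference and leaving out untreated 24 h replicate 2 gave 2103 without Dox. The 29 higher courses were 4 without untreated 24 h replicate 1 and 70 without untreated 12 h replicate 1.

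**Figure D1:**
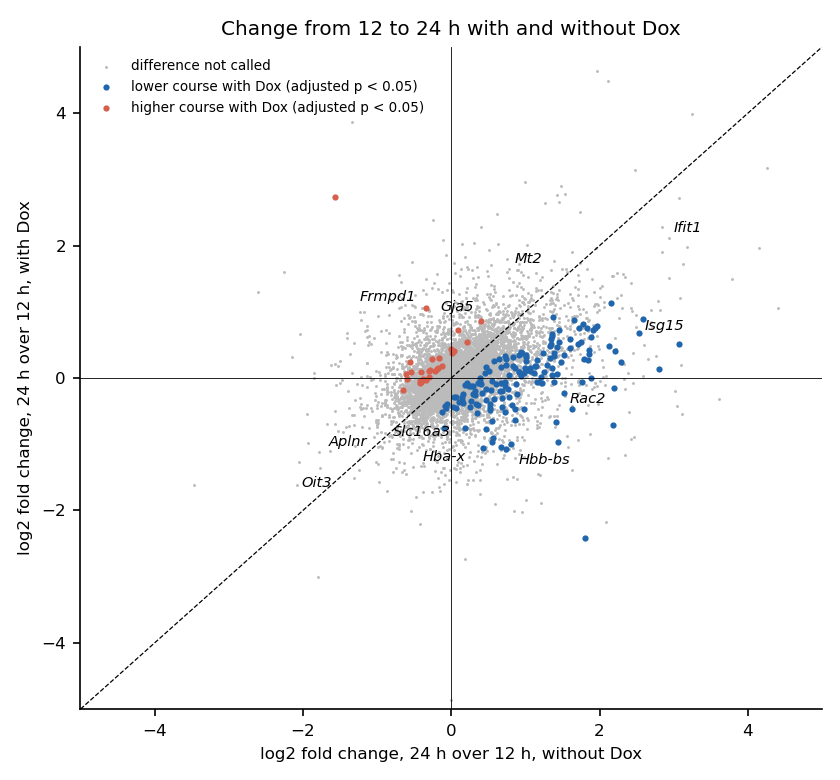
Each point is 1 of 15347 tested genes, with its log2 fold change of 24 h over 12 h without Dox on the x axis and with Dox on the y axis; the dashed line marks equal change. Colours mark the 156 genes with a lower and the 29 with a higher course under Dox, and most of the lower ones lie right of the vertical axis, among genes that rose without Dox.

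The largest changes were ranked among called genes averaging a log2 CPM of 1 or more, with no overlap between 24 and 12 h. Pseudogenes and gene models without a proper name were left out. By this rule the largest rises under Dox were of an interferon-induced gene, a metal-binding protein and genes of the matrix, the membrane and synaptic vesicles. Ifit1 (chr19:34640871-34650009), which binds viral RNA, had 5.91 and 5.38 CPM at 24 h with Dox and 1.4 and 1.15 CPM at 12 h with Dox, a log2 change of 2.11 ± 0.21 (adjusted p = 4.62e-08). Mt2 (chr8:94172618-94173567), a metallothionein that binds zinc and copper, had 9.95 and 9.69 CPM at 24 h and 3.35 and 2.82 CPM at 12 h (1.64 ± 0.19, adjusted p = 5.75e-07). In each of these genes the libraries of 24 h lay above those of 12 h. Ltbp4 (chr7:27305136-27337692), which stores latent TGF-beta in the extracellular matrix, had 21 and 23.3 CPM at 24 h and 9.36 and 8.02 CPM at 12 h (1.32 ± 0.13, adjusted p = 1.85e-08). Igfbp7 (chr5:77349240-77408045), a secreted binding protein of the insulin-like growth factor system, had 6.8 and 9.83 CPM at 24 h and 2.49 and 3.79 CPM at 12 h (1.44 ± 0.22, adjusted p = 3.3e-05). Aldh1a3, an enzyme that makes retinoic acid, rose by 1.38 ± 0.27, with 7.88 and 5.67 CPM at 24 h and 2.68 and 2.63 CPM at 12 h. These 3 genes span matrix storage, growth factor binding and retinoic acid synthesis. The receptor phosphatase Ptprt (1.63 ± 0.24), Fam196a (1.53 ± 0.29), the synaptic vesicle protein Svop (1.52 ± 0.21), the peptidylarginine deiminase Padi2 (1.28 ± 0.28) and the interferon-induced protease Usp18 (1.44 ± 0.27) rose as well. Adamtsl4 (1.33 ± 0.30), Megf6 (1.31 ± 0.29), Podn (1.27 ± 0.31), a leucine-rich matrix proteoglycan, and the membrane protein Clstn2 (1.27 ± 0.32) complete the 14 largest rises. Their calls were lost without Dox 12 h replicate 1 (adjusted p = 0.0907 for Adamtsl4 and 0.0876 for Megf6; Podn and Clstn2 also without Dox 24 h replicate 2, up to 0.152 and 0.205), and that of Usp18 without Dox 24 h replicate 1 (0.2).

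By the same rule, the largest falls held receptors of endothelium and mesoderm, NMDA receptor subunits and globins. Oit3 (chr10:59422958-59441778), a secreted zona pellucida domain protein of liver and its sinusoidal endothelium, had 17.7 and 15.1 CPM at 24 h with Dox and 45.6 and 49.3 CPM at 12 h with Dox, a log2 change of -1.5 ± 0.09 (adjusted p = 4.66e-12). Aplnr (chr2:85136225-85139923), the apelin receptor of early mesoderm and veins, had 63.7 and 61.4 CPM at 24 h and 132 and 123 CPM at 12 h (-1.03 ± 0.07, adjusted p = 7.49e-12). Mrc1 (chr2:14229414-14332057), the mannose receptor of macrophages and sinusoidal endothelium, had 23.6 and 20.8 CPM at 24 h and 53.7 and 43.4 CPM at 12 h (-1.13 ± 0.11, adjusted p = 1.22e-08). In each of these 3 genes the libraries of 24 h lay well below those of 12 h. Gpr182 (chr10:127747276-127751732), a receptor of endothelium (-0.96 ± 0.13), and the GTPase gene Gimap8 (-0.90 ± 0.19) fell too. The NMDA-type glutamate receptor subunits Grin3a (-1.57 ± 0.21) and Grin2c (-1.28 ± 0.26) fell from low levels, with 2.07 and 1.65 CPM at 24 h and 5.11 and 6.61 CPM at 12 h for Grin3a. Slc30a10, a manganese exporter, fell (-1.06 ± 0.23), with 4.76 and 3.8 CPM at 24 h and 9.33 and 8.92 CPM at 12 h. The call of its difference of courses was lost without Dox 12 h replicate 1, untreated 24 h replicate 1 or untreated 12 h replicate 2 (adjusted p up to 0.199) and with DESeq2 (adjusted p = 0.241). The embryonic globin gene Hba-x (-0.90 ± 0.12) and Hbb-bs (-1.0 ± 0.24) are taken up with the other globins. Ripply3 (-1.05 ± 0.28), Ankrd37 (-1.04 ± 0.32), Trim10 (-0.97 ± 0.29) and Gdap10 (-0.94 ± 0.27) had under 5 CPM in all 4 Dox libraries, and each lost its call without at least 2 of the libraries, with adjusted p up to 0.55: Ripply3 without either Dox 24 h library or Dox 12 h replicate 2 (adjusted p up to 0.0566), Ankrd37 without Dox 24 h replicate 2 or either Dox 12 h library (adjusted p up to 0.237), Trim10 without either Dox 24 h library or Dox 12 h replicate 1 (adjusted p up to 0.351) and Gdap10 without Dox 24 h replicate 2 or Dox 12 h replicate 1 (adjusted p up to 0.55). Of the 28 genes with the largest rises and falls, 18 were called in all 4 fits that left out 1 of the Dox libraries. Hbb-bs lost its call with Dox without Dox 12 h replicate 1 (adjusted p = 0.0524).

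**Figure D2:**
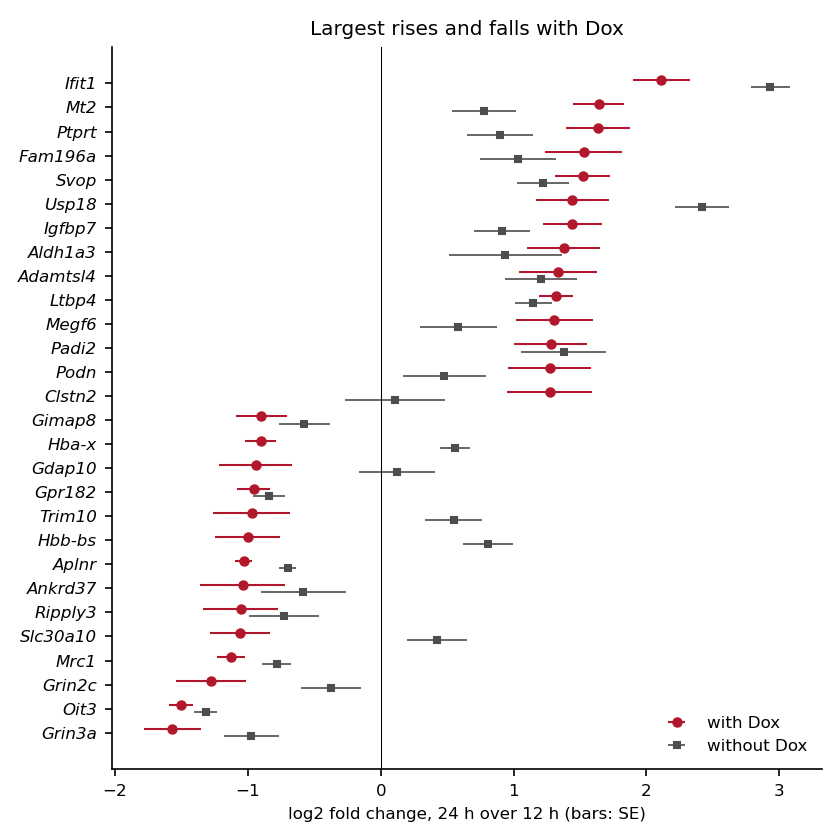
Log2 fold change of 24 h over 12 h for the 14 largest rises and 14 largest falls with Dox (circles), beside the same genes without Dox (squares). Bars are SE, and only genes with a proper name were ranked. Most genes lie on the same side of 0 in both arms, and Slc30a10, Hbb-bs, Trim10 and Hba-x lie on opposite sides and have a called difference of courses, which Slc30a10 and Trim10 lost in 3 and 6 of the 8 fits that left out 1 library.

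Interferons are signalling proteins that act through transcription factors such as STAT2 and IRF9 to switch on antiviral genes, many of which carry an interferon-stimulated response element in the promoter. A part of the interferon response genes rose with Dox, and the course of many was lower than it was without Dox. Of 38 tested genes, 16 rose with Dox and 0 fell, with a median change of 0.416; without Dox 37 rose and 0 fell, with a median of 1.92, while the median of all tested genes was -0.00291 with Dox and 0.00609 without. The difference was called lower under Dox for 18 of the 38 (1.02% of all genes). The summed level of the 38 genes was 444 to 448 CPM at 24 h with Dox and 374 to 390 CPM at 12 h with Dox, against 948 to 1003 CPM at 24 h and 438 to 447 CPM at 12 h without Dox. The promoters of 3 of these genes are shown because Isg15 and Ifit3 had a far lower course with Dox than without it, and Ifit1 had the largest fitted change of the 16 that rose with Dox. Each is the 250 bases before the gene's start in RefSeq (GRCm38.p6), 5′ to 3′ on the gene's strand, with the repeat of the response element, GAAA followed by any 2 bases and GAAA, searched on both strands, in capitals: Ifit1 at chr19:34640639-34640888 (plus strand), Isg15 at chr4:156200819-156201068 (minus strand) and Ifit3 at chr19:34583279-34583528 (plus strand).
Ifit1: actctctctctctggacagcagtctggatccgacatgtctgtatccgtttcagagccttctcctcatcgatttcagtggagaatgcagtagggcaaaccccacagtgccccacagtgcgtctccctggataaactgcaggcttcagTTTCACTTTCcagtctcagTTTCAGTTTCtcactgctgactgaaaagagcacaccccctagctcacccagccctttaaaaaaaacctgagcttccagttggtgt
Isg15: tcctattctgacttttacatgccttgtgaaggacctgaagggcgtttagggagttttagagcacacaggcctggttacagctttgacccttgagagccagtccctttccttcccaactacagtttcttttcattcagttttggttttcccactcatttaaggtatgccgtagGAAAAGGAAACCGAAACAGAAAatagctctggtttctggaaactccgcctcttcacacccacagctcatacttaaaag
Ifit3: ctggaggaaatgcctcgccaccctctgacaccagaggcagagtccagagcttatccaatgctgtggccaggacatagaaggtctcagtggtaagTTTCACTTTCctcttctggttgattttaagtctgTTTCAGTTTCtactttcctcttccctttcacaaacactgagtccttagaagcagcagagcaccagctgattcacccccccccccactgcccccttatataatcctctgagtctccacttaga
The repeat occurred 2 times in Ifit1 and 2 times in Ifit3, on the other strand, and 3 times, overlapping, in Isg15. It was found in 13 of the 28 listed interferon genes with a matched promoter (46.4%) and in 2.98% of all 32851 promoters of this length. A listed gene counted if any of its promoters held the repeat, while the share over all is of single promoters. These shares are thus not in the same unit. A match is a description of letters and says nothing of binding.

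Isg15, a ubiquitin-like protein attached to other proteins during the response, had 5.16 and 3.16 CPM at 24 h with Dox and 2.79 and 2.63 CPM at 12 h with Dox, a change of 0.68 ± 0.21 (adjusted p = 0.0295). Without Dox it had 23.3 and 25.3 CPM at 24 h and 4.77 and 3.91 CPM at 12 h (2.53 ± 0.17), and the difference of courses was -1.85 ± 0.28 (adjusted p = 0.00028). The 2 arms were thus closer at 12 h than at 24 h. Ifit3, a partner of IFIT1, had 3.38 and 3.16 CPM at 24 h with Dox and 1.76 and 1.8 CPM at 12 h with Dox, against 20.6 and 21.4 CPM at 24 h and 3.56 and 3.48 CPM at 12 h without Dox, and the difference was -1.69 ± 0.27 (adjusted p = 0.000467). Ddx58, the RNA sensor RIG-I, rose in both arms, by 0.76 ± 0.12 with Dox and 1.94 ± 0.11 without, and the difference was -1.18 ± 0.16 (adjusted p = 5.34e-05). Xaf1, an interferon-induced partner of XIAP, had 3.61 and 4.38 CPM at 24 h and 2.82 and 3.14 CPM at 12 h with Dox (0.41 ± 0.23, adjusted p = 0.252), against 13.9 and 15.6 CPM at 24 h and 4.34 and 2.57 CPM at 12 h without. All 4 genes had a lower course under Dox. Among the factors that carry the signal, Stat2 (-0.17 ± 0.08, adjusted p = 0.175) and Irf9 (0.07 ± 0.13, adjusted p = 0.784) did not pass the test with Dox, while without Dox they rose by 0.47 ± 0.08 and 1.11 ± 0.12; the differences were -0.63 ± 0.11 and -1.04 ± 0.18, with adjusted p of 0.0015 and 0.00128. Irgm1, a GTPase of cell defence, rose with Dox by 0.46 ± 0.10 and without Dox by 1.60 ± 0.09 (difference -1.15 ± 0.14, adjusted p = 8.92e-06), and Rsad2, the antiviral protein viperin, by 0.42 ± 0.13 and 1.86 ± 0.11 (difference -1.43 ± 0.17, adjusted p = 6.73e-06). Oas3 was at 0 in both libraries of 12 h with Dox and is given no change. Ifit1 had a difference of -0.82 ± 0.28 (adjusted p = 0.191), which did not pass. The count of 16 was 8 without Dox 24 h replicate 1, and Isg15 lost its call with Dox when that library or either library of 12 h was left out (adjusted p up to 0.702); Ifit3 lost it without either replicate 1 (up to 0.0729) and Ifit2 without Dox 24 h replicate 1 (0.0947). Ifit3 is one of a group of closely similar genes, among which the counting could split reads. Rsad2 lost its call with Dox without Dox 24 h replicate 2 or Dox 12 h replicate 2 (adjusted p up to 0.247).

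Genes of antigen presentation by MHC class I, many of which interferons also switch on, rose in part. Of 15 tested genes, 4 rose with Dox and 0 fell (median 0.302), against 9 and 0 without Dox (median 0.699). Tap1, which carries peptides into the endoplasmic reticulum, had 16.2 and 15.4 CPM at 24 h with Dox and 7.77 and 9.69 CPM at 12 h with Dox, a change of 0.89 ± 0.13 (adjusted p = 1.56e-05). B2m, the light chain of MHC class I, rose by 0.30 ± 0.06 and Tapbp, which loads peptides, by 0.40 ± 0.08. Both calls were lost without Dox 12 h replicate 1 (adjusted p = 0.0826 and 0.0831). Nlrc5, the activator of MHC class I genes, was called higher with under 1 CPM in every Dox library, and lost its call without Dox 24 h replicate 2 or either Dox 12 h library (adjusted p up to 0.145). None of the 15 was called for the difference of courses by edgeR's test, where 1.21% of all genes were, or by DESeq2, and 6 reached an unadjusted p under 0.05. Tap1 had a difference of -0.40 ± 0.18 (adjusted p = 0.42) and H2-K1 of -0.42 ± 0.12 (adjusted p = 0.0895).

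Cells copy their DNA in S phase and divide in M phase, and each phase has its own set of genes. Genes of both phases fell together between 12 and 24 h with Dox. Of 28 tested G1/S genes, 23 fell and 0 rose (median -0.339), and of 25 G2/M genes, 24 fell and 0 rose (median -0.354), where 5.98% of all genes fell. Without Dox 23 of the 28 (median -0.282) and 21 of the 25 (median -0.259) fell. The summed G2/M level was 2306 to 2368 CPM at 24 h with Dox and 2946 to 3024 CPM at 12 h with Dox, against 2487 to 2608 CPM at 24 h and 3014 to 3038 CPM at 12 h without Dox. The promoters of Cdk1 and Kif11 are shown because both genes fell in each arm and both carry the core TTTGAA of the cell cycle homology region, searched on both strands and set in capitals. The 250 bases before the gene's start (RefSeq, GRCm38.p6, 5′ to 3′ on the gene's strand) lie at chr10:69352913-69353162 (minus strand) for Cdk1 and at chr19:37376132-37376381 (plus strand) for Kif11, where the match is on the other strand.
Cdk1: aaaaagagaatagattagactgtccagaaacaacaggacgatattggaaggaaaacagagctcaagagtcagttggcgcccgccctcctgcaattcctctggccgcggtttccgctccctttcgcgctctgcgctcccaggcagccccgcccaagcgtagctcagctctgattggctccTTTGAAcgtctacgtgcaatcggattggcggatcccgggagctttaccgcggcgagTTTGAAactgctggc
Kif11: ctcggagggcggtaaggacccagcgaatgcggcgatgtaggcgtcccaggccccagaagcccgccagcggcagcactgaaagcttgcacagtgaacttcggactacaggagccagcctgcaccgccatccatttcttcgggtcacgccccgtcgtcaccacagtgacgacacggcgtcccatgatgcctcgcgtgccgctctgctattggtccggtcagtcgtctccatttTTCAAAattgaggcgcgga
TTTGAA was found in 7 of the 21 listed G2/M genes with a matched promoter (33.3%) and in 15.99% of all 32851 promoters of this length. Here too a listed gene counted by any of its promoters and the share over all by single promoters, so the shares are not in the same unit.

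Cdk1, the kinase that starts mitosis, had 117 and 107 CPM at 24 h with Dox and 152 and 152 CPM at 12 h with Dox, a change of -0.44 ± 0.06 (adjusted p = 6.14e-06). Kif11, a motor protein of the spindle, had 84.5 and 77.3 CPM at 24 h and 120.0 and 106 CPM at 12 h (-0.48 ± 0.07, adjusted p = 1.17e-05). In both genes the 2 times did not overlap. Bub1 of the spindle checkpoint (-0.47 ± 0.06), the survivin gene Birc5 (-0.46 ± 0.06) and Mad2l1 (-0.52 ± 0.08) fell as well. Mcm5, part of the helicase that opens DNA for copying, had 114 and 104 CPM at 24 h and 147 and 144 CPM at 12 h (-0.42 ± 0.06, adjusted p = 4.43e-06). Uhrf1 (-0.37 ± 0.06), which keeps DNA methylation through replication, Mcm6 (-0.33 ± 0.06) and Cdc6 (-0.54 ± 0.10), which loads the helicase, fell too. All 4 replication genes also fell without Dox. Mki67, the gene of the proliferation marker Ki-67, fell (-0.39 ± 0.06) with Dox and had -0.05 ± 0.06 without (adjusted p = 0.596). Its difference of -0.34 ± 0.09 (adjusted p = 0.046) was the 1 difference that edgeR's test called among the genes of both lists. DESeq2 called 0 differences in either list. Ube2c (-0.08 ± 0.07) was the 1 G2/M gene that did not pass with Dox. When 1 of the 4 Dox libraries was left out, 14 to 20 of the G1/S genes fell, the lowest count without Dox 12 h replicate 1, and 20 or 21 of the G2/M genes. Mki67 lost the call of its difference unless the library left out was Dox 12 h replicate 2, untreated 24 h replicate 1 or untreated 12 h replicate 1 (adjusted p up to 0.386).

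Targets of the tumour suppressor p53, which halts the cell cycle, rose over the same hours. Of 20 tested genes, 13 rose with Dox and 0 fell (median 0.201, where 7.84% of all genes rose), and without Dox 8 rose and 0 fell (median 0.151). Cdkn1a, the cell cycle inhibitor p21, had 375 and 414 CPM at 24 h with Dox and 247 and 267 CPM at 12 h with Dox, a change of 0.62 ± 0.06 (adjusted p = 1.79e-08). Perp, a membrane protein of cell adhesion and apoptosis, had 129 and 138 CPM at 24 h and 78.2 and 84.9 CPM at 12 h (0.71 ± 0.06, adjusted p = 5.63e-09). Both genes rose without Dox too, by 0.53 ± 0.06 and 0.59 ± 0.06. Ccng1 rose by 0.43 ± 0.05, Trp53inp1 by 0.39 ± 0.05 and the pro-apoptotic gene Pmaip1 by 0.75 ± 0.11. Mdm2, which marks p53 for degradation, rose by 0.30 ± 0.05 (adjusted p = 0.000182). None of the 20 was called for the difference of courses by edgeR's test or by DESeq2, with 6 higher and 1 lower at an unadjusted p under 0.05, and the count with Dox was 7 without Dox 12 h replicate 1.

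**Figure D3:**
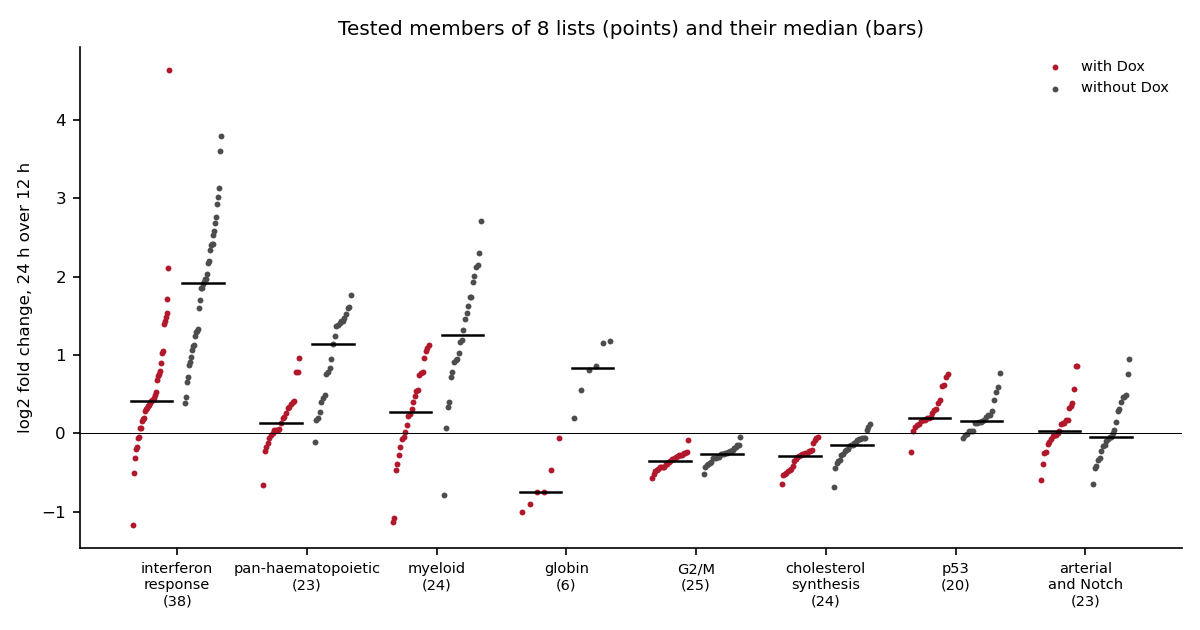
Log2 fold change of 24 h over 12 h for each tested member of 8 lists (points) with Dox and without Dox, with the list's median as a bar and the number of members under its name. The interferon, pan-haematopoietic, myeloid and globin medians lie lower with Dox than without. The G2/M, cholesterol and p53 medians lie on the same side of 0 in both arms. With Dox they were -0.354, -0.287 and 0.201, and without Dox -0.259, -0.152 and 0.151. The highest interferon point with Dox is Oas3, which was at 0 at 12 h, so its fitted value is no measure of the change.

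Globins carry oxygen in red cells; Hba-x, Hbb-bh1 and Hbb-y are their embryonic forms, and Hba-a1 and Hbb-bs are adult forms. Of 6 tested globin genes, 4 fell with Dox and 0 rose (median -0.749), while without Dox 5 rose and 0 fell (median 0.833). The difference was called lower under Dox for 5 of the 6, where 1.02% of all genes were. Hba-x (chr11:32276400-32278116) had 269 and 221 CPM at 24 h with Dox and 457 and 463 CPM at 12 h with Dox (-0.90 ± 0.12, adjusted p = 2.33e-06), against 921 and 814 CPM at 24 h and 735 and 449 CPM at 12 h without Dox (0.56 ± 0.11). Its difference of courses was -1.46 ± 0.16 (adjusted p = 2.69e-06). Hbb-bs (chr7:103826534-103828096) had 3.38 and 2.44 CPM at 24 h and 6.15 and 6.03 CPM at 12 h with Dox (-1.0 ± 0.24, adjusted p = 0.00488), against 21.2 and 15 CPM at 24 h and 13.7 and 7.63 CPM at 12 h without (0.81 ± 0.19). Both genes fell with Dox and rose without it, although the 2 untreated libraries of 12 h differed from each other by more than the Dox libraries did. Hbb-bh1 fell (-0.75 ± 0.13) with Dox, with 755 and 587 CPM at 24 h and 1181 and 1086 CPM at 12 h, and had 0.19 ± 0.13 without Dox (adjusted p = 0.332; difference -0.94 ± 0.19, adjusted p = 0.00541). Hba-a1 fell (-0.47 ± 0.13) with Dox and rose by 0.86 ± 0.11 without (difference -1.33 ± 0.17, adjusted p = 3.16e-05). Hbb-y had no called change with Dox (-0.05 ± 0.07, adjusted p = 0.704), with 396 and 343 CPM at 24 h and 390.3 and 378 CPM at 12 h, while without Dox it rose by 1.16 ± 0.08 (difference -1.21 ± 0.11, adjusted p = 7.3e-08). Hba-a1 and Hba-a2, and Hbb-bs and Hbb-bt, are near-identical pairs whose reads the counting could split. Hbb-bs lost its call with Dox without Dox 12 h replicate 1 (adjusted p = 0.0524) and Hba-a1 without either replicate 2 (up to 0.0751). The groups of each arm did not overlap for Hba-x or Hbb-bs. With DESeq2 the call of Hba-a1 with Dox and that of the difference of Hbb-bh1 were lost. Hbb-bh1 lost the call of its difference without untreated 24 h replicate 1 (adjusted p = 0.0693).

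Other red cell genes included falls and a smaller number of rises with Dox. Of 25 tested genes of the red cell membrane and of haem synthesis, 3 rose and 6 fell (median -0.164), where 7.84% of all genes rose and 5.98% fell, so the rises were near the share over all genes, while without Dox 10 rose and 0 fell (median 0.234), and the difference was called lower under Dox for 6. Over all genes 12.2% rose without Dox, and 1.02% had a called lower course under Dox. Tfrc, the receptor through which cells take up iron, fell with Dox (-0.35 ± 0.06, adjusted p = 0.00019). Ank1, which anchors the red cell skeleton, fell too (-0.65 ± 0.17), with 5.48 and 5.81 CPM at 24 h and 9.56 and 7.76 CPM at 12 h. Slc4a1, the anion exchanger of the red cell membrane, rose by 0.65 ± 0.14, with 21 and 19 CPM at 24 h and 13.4 and 12.1 CPM at 12 h. Alas2, the first enzyme of haem synthesis in red cells, had -0.24 ± 0.11 with Dox (adjusted p = 0.14) and rose by 0.88 ± 0.11 without (difference -1.12 ± 0.15, adjusted p = 5.24e-05). The spectrin gene Sptb showed the same pattern, with a difference of -0.69 ± 0.12 (adjusted p = 0.00155), a call lost with DESeq2 (adjusted p = 0.066). Other falls included Ppox and Trim10, and the other rises were Rhag and Tmcc2. Ank1 was not called without either replicate 1 (adjusted p up to 0.231), Rhag without Dox 24 h replicate 2 or Dox 12 h replicate 1 (up to 0.076), Tmcc2 without Dox 24 h replicate 2 or either Dox 12 h library (adjusted p up to 0.485), and Trim10 without either Dox 24 h library or Dox 12 h replicate 1 (adjusted p up to 0.351). Ank1 lost the call of its difference without Dox 12 h replicate 1 or untreated 12 h replicate 2 (adjusted p up to 0.107). Trim10 lost the call of its difference unless the library left out was Dox 12 h replicate 2 or untreated 12 h replicate 1 (adjusted p up to 0.419), and with DESeq2 (adjusted p = 0.0917).

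A part of the genes of megakaryocytes and platelets rose in both arms. Of 20 tested, 6 rose and 1 fell with Dox (median 0.381), and 12 rose and 0 fell without (median 0.687). Tubb1, the tubulin of platelets, had 8.44 and 9.55 CPM at 24 h with Dox and 4.11 and 3.91 CPM at 12 h with Dox (1.14 ± 0.16, adjusted p = 7.99e-06). Itgb3, a subunit of the fibrinogen receptor, had 259 and 252 CPM at 24 h and 209 and 179 CPM at 12 h (0.39 ± 0.06, adjusted p = 3.6e-05). Both rose without Dox too, by 1.35 ± 0.13 and 0.52 ± 0.06, and their differences did not pass the test. Thbs1, a matrix protein stored in platelets and made by many other cells, rose by 0.37 ± 0.05, as did Plek, described with the blood genes, and the platelet receptor subunits Gp5 and Gp1bb by 0.94 ± 0.22 and 1.2 ± 0.30. P2ry1, an ADP receptor, went against the list with a fall of -0.34 ± 0.06 (adjusted p = 0.000462) and a difference of -0.49 ± 0.09 (adjusted p = 0.0038). Itga2b, the CD41 gene that marks the first blood cells, did not pass with Dox (-0.15 ± 0.07, adjusted p = 0.193), with 46.6 and 46.9 CPM at 24 h and 53.6 and 49.3 CPM at 12 h. Gp5 lost its call with Dox without Dox 24 h replicate 1 or Dox 12 h replicate 1 (adjusted p up to 0.0858). Gp1bb lost its call with Dox without Dox 12 h replicate 1 (adjusted p = 0.252). P2ry1 lost the call of its difference without Dox 12 h replicate 1 or untreated 24 h replicate 2 (adjusted p up to 0.0713).

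General blood cell genes rose in untreated cells and mostly did not pass the test with Dox. Of 23 tested genes shared by white blood cells, 3 rose and 0 fell with Dox (median 0.136), and 19 rose and 0 fell without (median 1.14). Over all genes 7.84% rose with Dox and 12.2% without, and 1.02% had a called lower course under Dox. The difference was called lower under Dox for 8, and for 4 without Dox 12 h replicate 1. The summed level of the list was 1107 to 1156 CPM at 24 h with Dox and 1001 to 1036 CPM at 12 h with Dox, against 1571 to 1625 CPM at 24 h and 1203 to 1206 CPM at 12 h without Dox; Cd48 was at 0 in all 12 libraries. Plek, a protein kinase C substrate of platelets and white cells, had 123 and 113 CPM at 24 h with Dox and 99.6 and 88.6 CPM at 12 h with Dox (0.32 ± 0.06), against 378 and 397 CPM at 24 h and 221 and 215 CPM at 12 h without (0.83 ± 0.06; difference -0.51 ± 0.09, adjusted p = 0.00126). Lcp1, an actin-bundling protein, rose by 0.38 ± 0.09 with Dox and 0.95 ± 0.09 without (difference -0.57 ± 0.13, adjusted p = 0.0137), and the hyaluronan receptor Cd44, which other cells make too, by 0.20 ± 0.05. Plek and Lcp1 thus rose in both arms and less with Dox. Rac2, a small GTPase of blood cells (chr15:78559169-78572783), had 5.19 and 5.24 CPM at 24 h and 6.06 and 6.16 CPM at 12 h with Dox (-0.23 ± 0.19, adjusted p = 0.48), against 7.65 and 6.49 CPM at 24 h and 2.42 and 2.42 CPM at 12 h without (1.52 ± 0.21). Its difference was -1.75 ± 0.28 (adjusted p = 0.000503). Rac2 thus stood higher with Dox than without at 12 h, and lower at 24 h. Fcer1g, the shared chain of Fc receptors, had 1.97 and 2.15 CPM at 24 h and 2.24 and 1.92 CPM at 12 h with Dox, against 6.36 and 6.65 CPM at 24 h and 1.78 and 2 CPM at 12 h without (difference -1.82 ± 0.35, adjusted p = 0.00372). In Rac2 and Fcer1g the groups with Dox were not called apart by edgeR's test, while the untreated libraries of 24 h lay well above those of 12 h. Coro1a (-1.38 ± 0.21) and Laptm5 (-0.74 ± 0.11) also had a called lower course under Dox. Lcp1 was not called with Dox without Dox 24 h replicate 1 (adjusted p = 0.163), nor Cd44 without either replicate 2 (up to 0.0736). Lcp1 lost the call of its difference without Dox 24 h replicate 2, Dox 12 h replicate 1, untreated 24 h replicate 2 or untreated 12 h replicate 2 (adjusted p up to 0.163). Fcer1g lost the call of its difference without Dox 12 h replicate 1 (adjusted p = 0.106).

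RUNX1 target genes are the class that the series' title names, without listing members. The target list used here was chosen for this report, and binding of RUNX1 to its genes was not tested. It shares genes with the list of the preceding paragraph, among them Rac2, Laptm5 and Coro1a. Of 23 tested genes of the target list, 3 rose and 3 fell with Dox (median 0.0446), while 17 rose and 0 fell without Dox (median 0.693). Over all genes 7.84% rose and 5.98% fell with Dox, and 12.2% and 10.2% without. The difference was called lower under Dox for 6 of the 23, where 1.02% of all genes were: Csf2rb, Ikzf1, Mpo, Rac2, Laptm5 and Coro1a. This count was 3 without untreated 12 h replicate 2 and 11 without untreated 12 h replicate 1. The summed level of the list was 527 to 552 CPM at 24 h with Dox and 453 to 520 CPM at 12 h with Dox, against 990 to 996 CPM at 24 h and 653 to 724 CPM at 12 h without Dox. Csf2rb, the shared beta chain of the IL3 and GM-CSF receptors, rose by 0.34 ± 0.10 with Dox and 1.01 ± 0.09 without (difference -0.66 ± 0.13, adjusted p = 0.00449). Csf1r, the receptor of macrophage colony-stimulating factor, had 4.73 and 3.95 CPM at 24 h and 2.74 and 2.25 CPM at 12 h with Dox (0.79 ± 0.20, adjusted p = 0.00659). Ikzf1, a transcription factor of lymphoid and early blood cells, fell (-0.35 ± 0.09) with Dox, with 30.9 and 31.6 CPM at 24 h and 43.8 and 34.6 CPM at 12 h, and rose by 0.27 ± 0.08 without (difference -0.62 ± 0.12, adjusted p = 0.00461). Myb (-0.44 ± 0.11), needed for definitive blood stem cells, and Mpo (-0.40 ± 0.13), the granule enzyme myeloperoxidase, fell. Itgb3 was the third gene that rose. Gfi1 and Gfi1b, repressors that act with RUNX1 in EHT, did not pass the test in either arm. With Dox they had -0.01 ± 0.15 (adjusted p = 0.97) and -0.26 ± 0.14 (adjusted p = 0.249). The sign of each turned when 1 Dox library was left out. Gfi1 turned to 0.040 without Dox 24 h replicate 2 and to 0.073 without Dox 12 h replicate 2, and Gfi1b to 0.056 without Dox 12 h replicate 1. Under upper-quartile scaling Gfi1 also turned, to 0.0039. Gfi1b was called lower under 1 of the 15 alternatives, over which its change ran from -0.457 to 0.056. Csf2rb, Ikzf1 and Myb were not called with Dox without either replicate 1 (adjusted p up to 0.258, 0.425 and 0.205), Csf1r without Dox 24 h replicate 1 or Dox 12 h replicate 2 (0.129), and Mpo without either Dox 24 h library or Dox 12 h replicate 1 (adjusted p up to 0.339). The difference of Mpo was lost unless the library left out was Dox 12 h replicate 2 or untreated 12 h replicate 1 (adjusted p up to 0.287), and with DESeq2 (adjusted p = 0.0663). Csf2rb and Csf2rb2 are near-identical copies. Csf2rb lost the call of its difference without untreated 12 h replicate 2 (adjusted p = 0.0855). Ikzf1 lost the call of its difference without Dox 12 h replicate 1, untreated 24 h replicate 2 or untreated 12 h replicate 2 (adjusted p up to 0.202).

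Runx1 itself rose in both arms. It had 184 and 183 CPM at 24 h with Dox and 160.3 and 152 CPM at 12 h with Dox, a change of 0.23 ± 0.06 (adjusted p = 0.00616), against 210.3 and 203 CPM at 24 h and 173 and 166 CPM at 12 h without Dox (0.29 ± 0.06); the difference was -0.06 ± 0.08 (adjusted p = 0.879). Without Dox 12 h replicate 2 the adjusted p with Dox was 0.0823. Of 25 tested blood transcription factors, 2 rose and 4 fell with Dox (median -0.0475), and 8 rose and 2 fell without. Over all genes 7.84% rose and 5.98% fell with Dox, and 12.2% and 10.2% without. The rises with Dox were thus near the share over all genes, and the falls without Dox did not exceed it. Cebpb, a factor of myeloid and inflammatory genes, had 22.6 and 24.8 CPM at 24 h and 15.6 and 15.7 CPM at 12 h with Dox (0.59 ± 0.10, adjusted p = 0.000126). Lmo2, a bridging factor of blood and endothelial complexes, had 50.4 and 53.3 CPM at 24 h and 75.8 and 65.8 CPM at 12 h (-0.46 ± 0.07, adjusted p = 3.23e-05). Klf1, the master factor of red cells, fell (-0.52 ± 0.16) with Dox (adjusted p = 0.0288) and had a difference of -0.87 ± 0.22 (adjusted p = 0.04). Spi1 (PU.1), which directs myeloid fate, was not called with Dox (-0.10 ± 0.19, adjusted p = 0.792) and rose by 0.77 ± 0.15 without; its difference of -0.87 ± 0.24 (adjusted p = 0.0708) did not pass. Tal1, Lyl1, Gata1, Gata2, Meis1 and Mecom were not called with Dox. Klf1 lost its call with Dox without either Dox 24 h library or Dox 12 h replicate 1 (adjusted p up to 0.261). Klf1 lost the call of its difference unless the library left out was Dox 12 h replicate 2 or untreated 12 h replicate 1 (adjusted p up to 0.427).

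**Figure D4:**
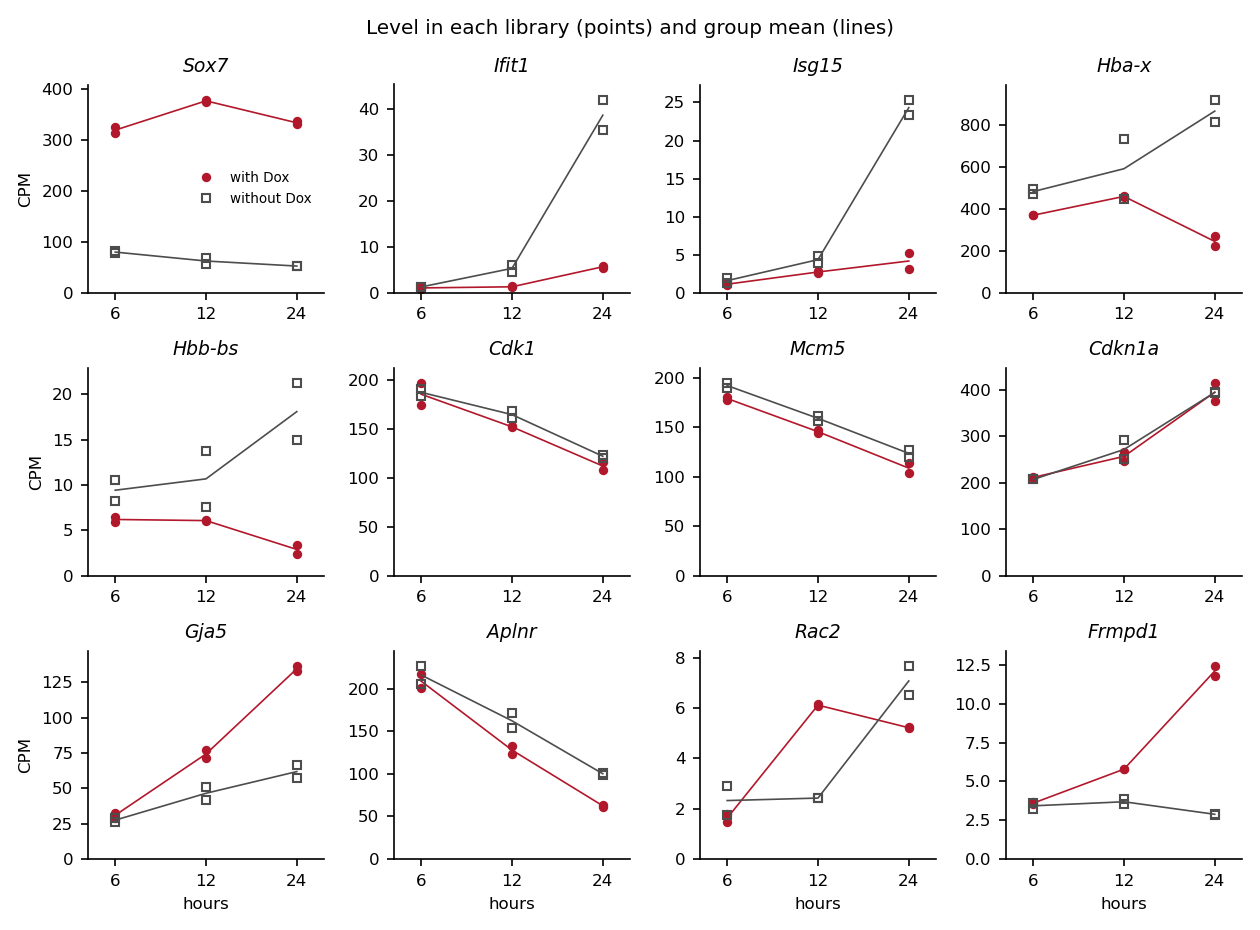
CPM of 12 genes in each library (points) and as group means (lines) at 6, 12 and 24 h, with Dox (filled circles) and without Dox (open squares). Sox7 lies above 300 CPM in all Dox libraries, and Isg15 is higher without Dox at 24 h. From 12 to 24 h Rac2 rises without Dox, from a lower level than with Dox, and does not rise with it. Hba-x and Hbb-bs fall with Dox from 12 to 24 h while they rise without it.

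A part of the myeloid genes rose with Dox, and most of them rose without it. Over all genes 7.84% rose and 5.98% fell with Dox, 12.2% and 10.2% without, and 1.02% had a called lower course under Dox. The myeloid falls with Dox were near the share over all genes. Of 24 tested, 8 rose and 2 fell with Dox (median 0.278), and 20 rose and 1 fell without (median 1.25), and the difference was called lower under Dox for 6, but for 1 without Dox 12 h replicate 1. Cx3cr1, the fractalkine receptor of monocytes, had 6.24 and 6.1 CPM at 24 h with Dox and 2.63 and 3.14 CPM at 12 h with Dox (1.13 ± 0.19), against 19.4 and 19.7 CPM at 24 h and 4.42 and 4.39 CPM at 12 h without (2.15 ± 0.16; difference -1.02 ± 0.25, adjusted p = 0.037). Itgam, the integrin subunit CD11b, had 0.48 ± 0.20 with Dox (adjusted p = 0.116) and rose by 2.13 ± 0.17 without (difference -1.65 ± 0.27, adjusted p = 0.000525). Ncf1, a subunit of the phagocyte NADPH oxidase, rose by 0.54 ± 0.18 with Dox (adjusted p = 0.0442) and 1.74 ± 0.15 without (difference -1.2 ± 0.24, adjusted p = 0.00541). All 3 genes had a lower course under Dox. DESeq2 did not call the difference of Cx3cr1 or the change of Ncf1 with Dox. The haemoglobin-binding protein Hp rose by 1.09 ± 0.22 with Dox and the galectin Lgals3 by 0.56 ± 0.14. The summed myeloid level was 146 to 156 CPM at 24 h with Dox and 147 to 159 CPM at 12 h with Dox, against 327 to 328 CPM at 24 h and 194 to 199 CPM at 12 h without Dox, and S100a9 was at 0 in all 12 libraries. With Dox the summed level at 24 h overlapped that at 12 h. Hp was not called without Dox 24 h replicate 1 (adjusted p = 0.0705), nor Lgals3 without either replicate 1 (0.146). Of 19 tested cytokine receptor genes, 3 rose and 1 fell with Dox (median 0.143), 10 rose and 0 fell without, and 2 had a lower course under Dox, Csf2rb and Il10ra. With Dox 7.84% of all genes rose and 5.98% fell, so the fall was near the share over all genes. The rises were Csf1r, Csf2rb and Csf2rb2, and the fall was Il4ra, lost without either Dox 24 h library or Dox 12 h replicate 2 (adjusted p up to 0.38). Kit, the stem cell factor receptor, had 64.8 and 80.9 CPM at 24 h with Dox and 74.4 and 69.5 CPM at 12 h with Dox and was not called (adjusted p = 0.988). Ncf1 lost its call with Dox without Dox 24 h replicate 1 or Dox 12 h replicate 2 (adjusted p up to 0.639). Cx3cr1 lost the call of its difference unless the library left out was untreated 12 h replicate 1 (adjusted p up to 0.187). Ncf1 lost the call of its difference without Dox 12 h replicate 1, untreated 24 h replicate 2 or untreated 12 h replicate 2 (adjusted p up to 0.365).

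Many endothelial genes fell slightly in both arms, without a called difference between them. Of 25 tested genes, 10 fell and 2 rose with Dox (median -0.14), and 15 fell and 1 rose without (median -0.217). For the difference 0 were called, where edgeR's test called 1.21% of all genes, and 0 by DESeq2. The difference was positive in 21 of the 25 and negative in 4 (median 0.0734). At an unadjusted p under 0.05 in edgeR's test, 4 had a higher and 0 a lower course under Dox. The summed endothelial level was 4890.1 to 5054 CPM at 24 h with Dox and 5301 to 5468 CPM at 12 h with Dox, against 4269.5 to 4312 CPM at 24 h and 4630.5 to 5081 CPM at 12 h without Dox. Tek, the angiopoietin receptor, had 207 and 215 CPM at 24 h with Dox and 255 and 277 CPM at 12 h with Dox (-0.33 ± 0.06, adjusted p = 8.12e-05). Erg, an ETS factor of endothelial identity, had 55.9 and 56.3 CPM at 24 h and 71.2 and 72.4 CPM at 12 h (-0.36 ± 0.07, adjusted p = 0.000397). Kdr, the VEGF receptor by whose product (FLK1) the cells were sorted, fell (-0.24 ± 0.05, adjusted p = 0.00269), as did the ETS factor gene Fli1 (-0.25 ± 0.06, adjusted p = 0.00837). All 4 fell without Dox too, with changes of -0.47 ± 0.06, -0.40 ± 0.07, -0.24 ± 0.05 and -0.40 ± 0.07. Vwf, von Willebrand factor, which endothelium and platelets share, rose by 0.80 ± 0.14, with 17.4 and 17 CPM at 24 h and 11.3 and 7.83 CPM at 12 h, and the receptor Clec14a by 0.41 ± 0.08. Cdh5, the cadherin of endothelial junctions (chr8:104101625-104144502), had 696 and 741 CPM at 24 h and 723 and 775 CPM at 12 h with Dox (-0.06 ± 0.05, adjusted p = 0.527), and the 2 times overlapped. The number of falls was 5 to 8 when 1 of the 4 Dox libraries was left out, the lowest without Dox 12 h replicate 2. Fli1 lost its call with Dox without Dox 24 h replicate 2 or Dox 12 h replicate 2 (adjusted p up to 0.113).

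Arterial identity is set by VEGF and Notch signalling, and a part of its genes rose with Dox. Of 23 tested, 5 rose and 2 fell with Dox (median 0.0242), where 7.84% of all genes rose and 5.98% fell, so the falls were near the share over all genes, and 6 rose and 6 fell without (median -0.0425). Gja5, the gap junction protein connexin 40 of arteries, had 133 and 136 CPM at 24 h with Dox and 71.7 and 77 CPM at 12 h with Dox (0.86 ± 0.08, adjusted p = 7.88e-09), against 57.1 and 66.7 CPM at 24 h and 41.8 and 51.3 CPM at 12 h without (0.40 ± 0.08). The difference of courses was 0.46 ± 0.12 (adjusted p = 0.0422), among the 29 with a higher course under Dox, and was not called by DESeq2. The other connexin, Gja4, had -0.07 ± 0.06 with Dox (adjusted p = 0.511) and fell (-0.41 ± 0.06) without (difference 0.35 ± 0.09, adjusted p = 0.034). The 2 connexins thus had a higher course under Dox, Gja5 through a larger rise and Gja4 through a fall in the untreated cells. Jag1, a Notch ligand, had 36.6 and 38 CPM at 24 h and 24.6 and 25.9 CPM at 12 h (0.57 ± 0.09, adjusted p = 4.78e-05). Dll4, another Notch ligand, had 56.4 and 56 CPM at 24 h and 74.8 and 72.5 CPM at 12 h (-0.39 ± 0.07, adjusted p = 0.000135). Without Dox they moved the same way, with changes of 0.46 ± 0.09 and -0.65 ± 0.07. Nrp1, a co-receptor of VEGF, rose by 0.17 ± 0.05 with Dox and 0.46 ± 0.05 without (difference -0.30 ± 0.07, adjusted p = 0.0216). Sema3g rose by 0.35 ± 0.08 and the growth factor Vegfc by 0.32 ± 0.08. The Notch target Hey1 fell (-0.26 ± 0.09), a call lost without any 1 of the 4 libraries (adjusted p up to 0.229). Nrp1 lost its call with Dox without either Dox 24 h library or Dox 12 h replicate 2 (adjusted p up to 0.323). Vegfc lost its call with Dox without Dox 24 h replicate 2 or either Dox 12 h library (adjusted p up to 0.3). Gja5 lost the call of its difference unless the library left out was Dox 12 h replicate 2, untreated 24 h replicate 2 or untreated 12 h replicate 1 (adjusted p up to 0.543). Gja4 lost the call of its difference unless the library left out was Dox 24 h replicate 1, Dox 12 h replicate 2 or untreated 12 h replicate 1 (adjusted p up to 0.336). Nrp1 lost the call of its difference unless the library left out was Dox 12 h replicate 2 or untreated 12 h replicate 1 (adjusted p up to 0.27).

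Of 11 tested venous and lymphatic genes, 2 rose and 2 fell with Dox, 3 rose and 3 fell without, and 0 were called for the difference. Over all genes 7.84% rose and 5.98% fell with Dox, and 12.2% and 10.2% without. The difference was called for 1.21% of all genes, so 0 of 11 is near that share. At an unadjusted p under 0.05 in edgeR's test, 1 of the 11 had a higher and 3 a lower course under Dox. Aplnr, described above, and Flt4, the VEGF-C receptor of lymphatic and venous endothelium (-0.34 ± 0.07, adjusted p = 0.000896), fell. Nrp2, a co-receptor of VEGF-C, rose by 0.25 ± 0.05 and the endocytic adaptor Dab2 by 0.23 ± 0.05. Aplnr fell without Dox (-0.70 ± 0.06), and its difference of -0.33 ± 0.09 (adjusted p = 0.0644) did not pass. Nrp2 was not called without Dox 24 h replicate 2 (adjusted p = 0.189), nor Dab2 without that library or Dox 12 h replicate 1 (up to 0.12). Of 20 tested genes of cell junctions, 1 rose and 1 fell with Dox, no more than the share over all genes (7.84% and 5.98%). Without Dox 4 of them rose and 3 fell, and 0 were called for the difference, where 1.21% of all genes were. At an unadjusted p under 0.05 in edgeR's test, 2 of these 20 had a higher and 0 a lower course under Dox. Cgnl1, an adaptor of tight junctions, had 285 and 294 CPM at 24 h with Dox and 235 and 239.5 CPM at 12 h with Dox (0.28 ± 0.05, adjusted p = 0.000191), and the connexin Gjc1 fell (-0.25 ± 0.08), a call lost without any 1 of the 4 libraries (up to 0.167).

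Cholesterol is built from acetyl-CoA by a chain of enzymes under the control of SREBP2, and genes of this chain fell. Of 24 tested, 17 fell and 0 rose with Dox (median -0.287), and 11 fell and 0 rose without (median -0.152). Msmo1, a sterol demethylation enzyme, had 194 and 183 CPM at 24 h with Dox and 272 and 273 CPM at 12 h with Dox (-0.53 ± 0.05, adjusted p = 6.06e-08). Dhcr7, the last enzyme of the chain, had 94.5 and 87.1 CPM at 24 h and 137 and 123 CPM at 12 h (-0.51 ± 0.06, adjusted p = 9.45e-07), and -0.12 ± 0.06 without Dox (difference -0.39 ± 0.09, adjusted p = 0.0177). Lss, which closes the sterol rings, fell (-0.42 ± 0.06) with Dox and had -0.08 ± 0.06 without (difference -0.34 ± 0.08, adjusted p = 0.0207). Dhcr7 and Lss were the 2 genes of the list with a called difference. Acat2 (-0.50 ± 0.06) and Hmgcs1 (-0.25 ± 0.05) fell as well. The regulator Srebf2 (-0.06 ± 0.05, adjusted p = 0.498) did not pass. Dhcr7 lost the call of its difference unless the library left out was Dox 24 h replicate 1, Dox 12 h replicate 2 or untreated 12 h replicate 2 (adjusted p up to 0.259). Lss lost the call of its difference unless the library left out was Dox 12 h replicate 2, untreated 24 h replicate 2 or untreated 12 h replicate 1 (adjusted p up to 0.246).

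A part of the genes of hypoxia and glycolysis, many of them targets of the hypoxia-inducible factors, fell with Dox, but the count depended on single libraries at both times. Of 29 tested, 11 fell and 0 rose with Dox (median -0.183), and 1 fell and 3 rose without. The difference was called lower under Dox for 4 of the 29, where 1.02% of all genes were, and DESeq2 called 1. Leaving out Dox 24 h replicate 2 or Dox 12 h replicate 1 left 1 fall, and leaving out Dox 24 h replicate 1 gave 16. Slc16a3, the lactate exporter MCT4, had 74.6 and 38 CPM at 24 h with Dox and 114 and 83.3 CPM at 12 h with Dox (-0.77 ± 0.19, adjusted p = 0.00498), against 97.3 and 91.4 CPM at 24 h and 92 and 49.4 CPM at 12 h without (difference -1.24 ± 0.27, adjusted p = 0.0119). The replicates of Slc16a3 lay far apart in the groups of 24 h with Dox and 12 h without, and its call with Dox was lost without Dox 24 h replicate 2 or Dox 12 h replicate 1 (adjusted p up to 0.175). Its promoter (RefSeq, GRCm38.p6, chr11:120948817-120949066, plus strand, the 250 bases before the gene's start, 5′ to 3′) is shown because it carries 2 copies of ACGTG, the core of the hypoxia response element, searched on both strands and set in capitals. Slc16a3 lost the call of its difference without Dox 12 h replicate 1, either untreated 24 h library or untreated 12 h replicate 2 (adjusted p up to 0.187).
Slc16a3: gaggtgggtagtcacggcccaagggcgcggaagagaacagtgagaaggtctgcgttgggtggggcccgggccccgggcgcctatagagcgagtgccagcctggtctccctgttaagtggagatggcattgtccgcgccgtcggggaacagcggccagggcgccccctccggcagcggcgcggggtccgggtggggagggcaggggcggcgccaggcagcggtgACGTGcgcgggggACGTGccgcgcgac
ACGTG was found in 17 of the 28 listed genes with a matched promoter and in 16.57% of all 32851 promoters of this length. Again a listed gene counted by any of its promoters and the share over all by single promoters, so the shares are not in the same unit. Egln3, a prolyl hydroxylase that marks the hypoxia-inducible factors, fell (-0.54 ± 0.10, adjusted p = 0.00051; 0.0662 without Dox 12 h replicate 1). Ldha (-0.29 ± 0.06), lactate dehydrogenase, and Pfkl (-0.44 ± 0.10), the liver phosphofructokinase, fell; both calls were lost without Dox 24 h replicate 2 or Dox 12 h replicate 1 (adjusted p up to 0.0779 and 0.0869). Vegfa, the main growth factor of endothelium, was not called with Dox (-0.04 ± 0.06, adjusted p = 0.682).

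ATF4 drives genes of amino acid supply under stress, and of 27 tested genes of this list 8 fell and 0 rose with Dox (median -0.0924), against 1 fall and 7 rises without. Psat1, of serine synthesis, had 139 and 132 CPM at 24 h with Dox and 194 and 196 CPM at 12 h with Dox (-0.52 ± 0.05, adjusted p = 7.05e-08) and fell without Dox too (-0.46 ± 0.05). Mthfd2, of the folate cycle in mitochondria, fell (-0.43 ± 0.07) with Dox and had 0.02 ± 0.07 without (difference -0.45 ± 0.10, adjusted p = 0.011). Trib3 fell (-0.49 ± 0.12) with Dox and rose by 0.53 ± 0.12 without (difference -1.02 ± 0.18, adjusted p = 0.00126), and Vldlr fell (-0.76 ± 0.12, difference -0.66 ± 0.17, adjusted p = 0.0416). Atf4 itself fell (-0.23 ± 0.06, adjusted p = 0.00694). The list thus held falls that both arms shared and falls that came with Dox. Trib3 lost its call with Dox without Dox 24 h replicate 1 or Dox 12 h replicate 1 (adjusted p up to 0.121). Mthfd2 lost the call of its difference unless the library left out was Dox 24 h replicate 1, Dox 12 h replicate 2 or untreated 12 h replicate 1 (adjusted p up to 0.135). Vldlr lost the call of its difference unless the library left out was Dox 24 h replicate 1 or untreated 12 h replicate 1 (adjusted p up to 0.255).

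Lysosomal genes rose. Of 20 tested, 12 rose and 1 fell with Dox (median 0.221), and 14 rose and 1 fell without (median 0.337). The protease genes Ctsb and Ctsd had 333 and 367 CPM and 761 and 826 CPM at 24 h with Dox, against 243 and 243 CPM and 558 and 606 CPM at 12 h with Dox, changes of 0.52 ± 0.05 and 0.45 ± 0.05. Ctsz rose by 0.36 ± 0.06 and Ctsa by 0.33 ± 0.06. These rises were close to those without Dox, which were 0.56 ± 0.05, 0.51 ± 0.05, 0.34 ± 0.06 and 0.39 ± 0.06. Lipa, the acid lipase that frees cholesterol in lysosomes, went against the list: it fell (-0.23 ± 0.06) with Dox and rose by 0.16 ± 0.06 without (difference -0.40 ± 0.08, adjusted p = 0.00934). Ctsc, a protease that activates enzymes of white cell granules, had 0.13 ± 0.07 with Dox (adjusted p = 0.225) and rose by 1.01 ± 0.06 without (difference -0.88 ± 0.09, adjusted p = 7.51e-07). Without Dox 24 h replicate 2 the count of rises was 5 and Lipa was not called (adjusted p = 0.0611). Lipa lost the call of its difference without Dox 24 h replicate 2, Dox 12 h replicate 1 or untreated 24 h replicate 2 (adjusted p up to 0.0785).

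Of 7 detected genes of the mitochondrial genome, 6 rose with Dox and 0 fell (median 0.371), and none was called without Dox by edgeR's test or DESeq2, nor reached an unadjusted p under 0.05. mt-Co1, a subunit of cytochrome c oxidase, had 6952 and 6244 CPM at 24 h with Dox and 5269 and 4660.2 CPM at 12 h with Dox (0.41 ± 0.06), against 6023 and 6157 CPM at 24 h and 5943 and 5941 CPM at 12 h without (difference 0.37 ± 0.09, adjusted p = 0.0253). DESeq2 did not call the difference of mt-Co1. The share of all counts on the mitochondrial genome was 2.097% and 1.749% at 24 h with Dox and 1.554% and 1.469% at 12 h with Dox, against 1.718% and 1.694% at 24 h and 1.706% and 1.599% at 12 h without. The 2 libraries of 24 h with Dox differed from each other by more than the lower of them did from those of 12 h, and without Dox 24 h replicate 1 the count was 2. This share also moves with RNA handling, whose part in the result was not tested. Of 20 immediate early genes, 4 rose with Dox and 0 fell: the antiproliferative gene Btg2 (0.49 ± 0.06, adjusted p = 1.49e-06), Junb (0.37 ± 0.07), Fos (0.41 ± 0.09) and Egr1 (0.34 ± 0.11). Without Dox 7 of the 20 rose and 3 fell, and 0 were called for the difference. Of the 15 Wnt target genes taken up below, 3 rose and 1 fell without Dox, and 0 were called for the difference. At an unadjusted p under 0.05 in edgeR's test, 0 immediate early genes had a higher and 2 a lower course under Dox. Among Wnt target genes these counts were 2 and 1. Over all genes 7.84% rose and 5.98% fell with Dox, 12.2% and 10.2% without, and the difference was called for 1.21%. Btg2 was called in every fit that left out 1 Dox library, Junb and Fos not without Dox 12 h replicate 1 (adjusted p = 0.0913 and 0.0826), and Egr1 not without Dox 24 h replicate 1 or either Dox 12 h library (adjusted p up to 0.675). Of 15 Wnt target genes, 2 rose (Ccnd1 and Kremen1) and 2 fell (Lgr5 and Apcdd1), and each of the 4 calls was lost without at least 1 Dox library, namely Ccnd1 without Dox 24 h replicate 2 or Dox 12 h replicate 1 (adjusted p up to 0.181), Kremen1 without Dox 24 h replicate 2 or Dox 12 h replicate 2 (adjusted p up to 0.132), Lgr5 without Dox 24 h replicate 1 (adjusted p = 0.14) and Apcdd1 without Dox 24 h replicate 1 or Dox 12 h replicate 2 (adjusted p up to 0.186). mt-Co1 lost the call of its difference unless the library left out was Dox 24 h replicate 2, Dox 12 h replicate 1 or untreated 12 h replicate 1 (adjusted p up to 0.148).

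Markers of other cell types that the cultures could hold were read the same way. Of 18 tested genes of smooth muscle and mesenchyme, 5 rose and 1 fell with Dox (median 0.292), and 9 rose and 1 fell without (median 0.677). Their summed level was 9503 to 9547 CPM at 24 h with Dox and 7373 to 8092 CPM at 12 h with Dox, against 10230 to 10483 CPM at 24 h and 8382 to 8632 CPM at 12 h without Dox. Acta2, smooth muscle actin, had 5313 and 5381 CPM at 24 h with Dox and 3985 and 4554 CPM at 12 h with Dox (0.32 ± 0.05, adjusted p = 7.94e-05). The matrix gene Postn rose by 0.39 ± 0.07 with Dox and 0.94 ± 0.07 without (difference -0.55 ± 0.09, adjusted p = 0.000902), and the collagen genes Col1a1 by 0.29 ± 0.05 and 0.65 ± 0.05 (difference -0.35 ± 0.07, adjusted p = 0.00682) and Col1a2 by 0.29 ± 0.06 and 0.74 ± 0.06 (difference -0.45 ± 0.08, adjusted p = 0.0015). Postn, Col1a1 and Col1a2 thus rose in both arms and less with Dox. The list's 1 fall with Dox was Lum, a collagen-binding proteoglycan of very low counts (-2.42 ± 0.75). The part that cells of this type have in the endothelial and blood results was not tested. Of 17 cardiac genes 2 rose and 2 fell with Dox, and 2 rose and 1 fell without. With Dox 7.84% of all genes rose and 5.98% fell. The summed cardiac level was 1229 to 1234 CPM at 24 h with Dox and 1291 to 1341 CPM at 12 h with Dox. Myh7, a cardiac myosin with the close relative Myh6, rose by 0.85 ± 0.18 and Actc1 fell (-0.49 ± 0.09); the other rise was Tnnt2 and the other fall Hand1, lost without Dox 24 h replicate 1 or Dox 12 h replicate 1 (adjusted p up to 0.157) and without Dox 12 h replicate 2 (adjusted p = 0.0711). Of 9 epithelial and endodermal genes 2 rose and 1 fell with Dox, with summed levels of 951 to 960 CPM at 24 h with Dox and 1009 to 1063 CPM at 12 h with Dox. Without Dox 1 of these 9 rose and 1 fell. The rises were Cdh1, lost without Dox 24 h replicate 2 or Dox 12 h replicate 2 (adjusted p up to 0.227), and Cldn7, lost without Dox 24 h replicate 2 or either Dox 12 h library (adjusted p up to 0.351), and the fall was Krt18, lost without Dox 24 h replicate 2 or Dox 12 h replicate 2 (adjusted p up to 0.118). Of 7 neural genes 3 rose and 0 fell: Nes, an intermediate filament also made by young endothelium (0.37 ± 0.06; difference 0.37 ± 0.08, adjusted p = 0.0139), Sox3 (0.68 ± 0.12) and Map2 (0.84 ± 0.19). The neural sum was 1067 to 1135 CPM at 24 h with Dox and 929 to 994 CPM at 12 h with Dox. Without Dox 1 of the 7 neural genes rose and 1 fell. No pluripotency or lymphoid gene was called with Dox by edgeR's test or DESeq2 among 7 and 3 tested (1 of each at an unadjusted p under 0.05), and Cd3e, Cd3g, Ms4a1 and Rag2 were at 0 in all 12 libraries. Lum lost its call with Dox without either Dox 24 h library or Dox 12 h replicate 1 (adjusted p up to 0.344). Map2 lost its call with Dox without Dox 12 h replicate 1 (adjusted p = 0.118). Col1a1 lost the call of its difference without untreated 24 h replicate 1 (adjusted p = 0.108). Nes lost the call of its difference unless the library left out was Dox 24 h replicate 1, Dox 12 h replicate 2 or untreated 12 h replicate 1 (adjusted p up to 0.161).

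**Figure D5:**
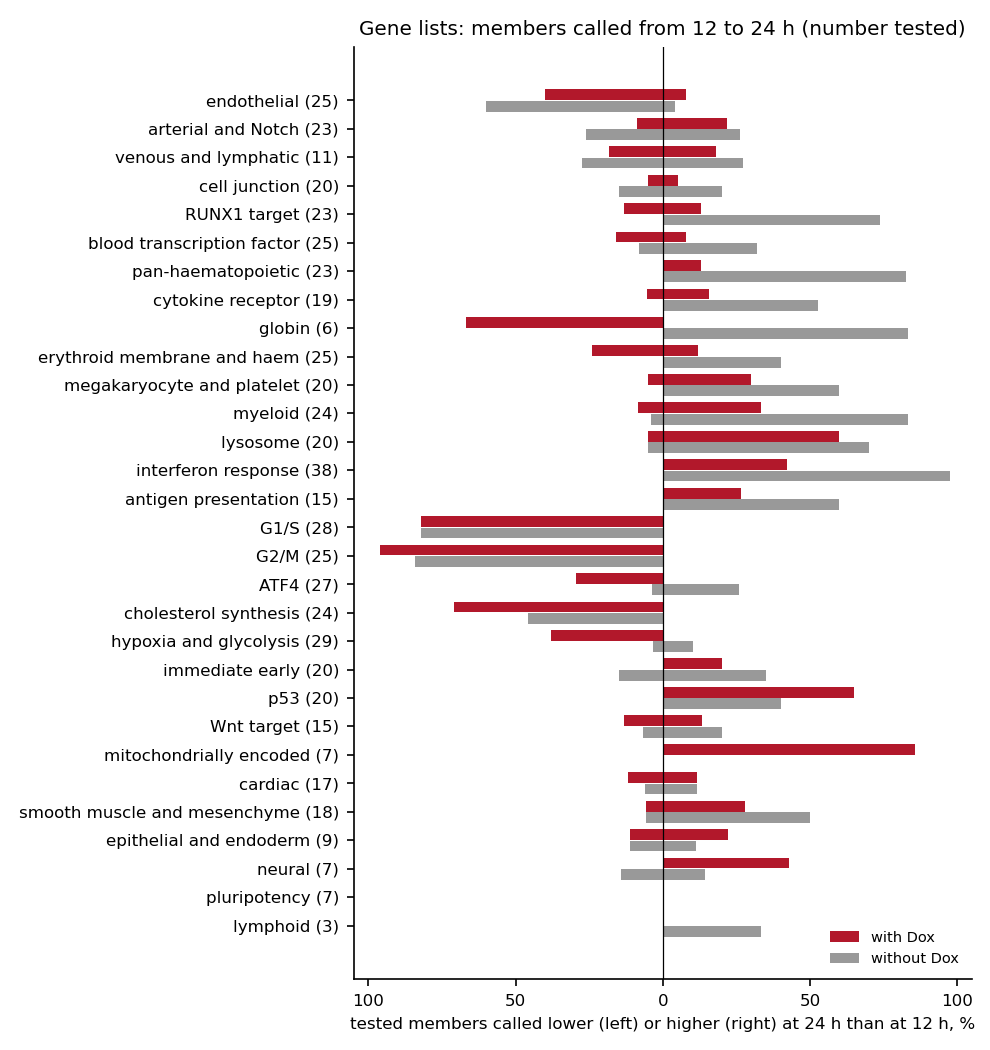
Share of the tested members of each list that fell (bars to the left) or rose (bars to the right) from 12 to 24 h, with Dox (red) and without Dox (grey), with the number tested beside the name. G1/S, G2/M and cholesterol bars point left in both arms, and the interferon, pan-haematopoietic and RUNX1 target bars to the right are shorter with Dox than without.

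Of the 185 genes with a called difference of courses, 156 had a lower and 29 a higher course under Dox. The 6 largest of these 29, among genes with a proper name and a mean log2 CPM of 1 or more, are described here. Frmpd1 (chr4:45184875-45285936), a scaffold protein of the cell membrane, had 11.8 and 12.4 CPM at 24 h with Dox and 5.81 and 5.77 CPM at 12 h with Dox (1.06 ± 0.15, adjusted p = 1.09e-05), against 2.86 and 2.91 CPM at 24 h and 3.85 and 3.54 CPM at 12 h without (-0.34 ± 0.19, adjusted p = 0.225). Its difference of 1.39 ± 0.24 (adjusted p = 0.00138) was called in all 8 fits that left out 1 library. Syt13, of the synaptotagmin family, rose by 0.73 ± 0.11 with Dox and had 0.09 ± 0.11 without (difference 0.64 ± 0.16, adjusted p = 0.0312). The homeobox gene Nkx1-2 had 17.8 and 17.4 CPM at 24 h and 16.7 and 17.1 CPM at 12 h with Dox, against 10.3 and 12.3 CPM at 24 h and 16.9 and 18.1 CPM at 12 h without (difference 0.67 ± 0.15, adjusted p = 0.0194). The secreted neuropeptide precursor Vgf (0.79 ± 0.20), the zinc finger gene Zik1 (0.63 ± 0.16) and Dph5, an enzyme of diphthamide synthesis (0.58 ± 0.14), fell without Dox and did not pass the test with it. In Nkx1-2, Vgf, Zik1 and Dph5 the difference thus came from a fall in untreated cells. DESeq2 did not call the difference of Dph5. Of the 66 named genes with a called difference, 26 were called in all 8 of these fits. Syt13 lost the call of its difference unless the library left out was Dox 24 h replicate 1, untreated 24 h replicate 1 or untreated 12 h replicate 1 (adjusted p up to 0.413). Nkx1-2 lost the call of its difference without Dox 24 h replicate 1, Dox 12 h replicate 1, untreated 24 h replicate 1 or untreated 12 h replicate 2 (adjusted p up to 0.176). Vgf lost the call of its difference unless the library left out was Dox 24 h replicate 1 or Dox 12 h replicate 2 (adjusted p up to 0.37). Zik1 lost the call of its difference unless the library left out was Dox 24 h replicate 1, Dox 12 h replicate 1 or untreated 12 h replicate 1 (adjusted p up to 0.313). Dph5 lost the call of its difference unless the library left out was Dox 24 h replicate 2, Dox 12 h replicate 2 or untreated 12 h replicate 2 (adjusted p up to 0.215).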

How the data were processed

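RNA-seq of 12 libraries was read from the authors' deposited tables. The counts per gene are raw reads, and the second table holds RPKM values as deposited; the factor behind each library's RPKM lay within 1.33% of the effective library size computed here. The library kit keeps strand, per the labels' protocols, and reads were single-end. The submitters' processing notes name GRCm38, edgeR 3.8.5 under R 3.1.0, SAMtools 0.1.19, Bowtie2 2.21 and bcl2fastq 2.16.0.10; how reads were counted, with which strand setting and gene models, is not given in the sources used here, so counts of overlapping and antisense genes are uncertain.

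From the counts, edgeR 4.0.16 (R 4.3.3) was run with TMM scaling, genes kept by filterByExpr, all 12 libraries and 1 mean per group, and the quasi-likelihood test was taken for 3 contrasts: 24 h over 12 h with Dox, the same without Dox, and their difference. Replicates of each group differed by more than sampling noise (chi-square per degree of freedom 2.63 to 4.61) and were kept as 2 samples. Total counts were 13485804 to 35250074 over the 12 libraries, and the precision of a gene follows its count. The test was checked on simulated data with known changes. Tried as alternatives were upper-quartile or RLE scaling, a filter of 1 CPM in 4 libraries or none, DESeq2 1.42.0, limma 3.58.1 on log2(RPKM + 0.5) and log2(RPKM + 0.1), a replicate block, the 4 Dox libraries alone, and each library left out; a depth block and a fit without the 6 h libraries were chosen after seeing the data.

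Named genes are 8 factors and markers, the 14 largest rises and falls with Dox (called, groups not overlapping, log2 CPM averaging 1 or more), the 6 largest differences of courses each way, and up to 4 members of each of 30 lists with the smallest adjusted p with Dox, plus called members that went against their list. Pseudogenes and gene models without a proper name were left out of the largest changes and differences. A further 41 genes were named after their values were seen. The members and lists were chosen with earlier results of these data known. Promoters came from RefSeq (GRCm38.p6) by symbol.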

Additional observations from a re-analysis of the deposited data

Results flagged for a closer look

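The results given here are the named genes whose course from 12 to 24 h differed between cells with and without Dox in edgeR's test of the difference itself (adjusted p under 0.05, 1.21% of all tested genes). Values are log2 differences, the course with Dox minus the course without, and no explanation was tested.

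Among interferon response genes the difference was -1.85 for Isg15, -1.80 for Xaf1, -1.69 for Ifit3, -1.43 for Rsad2, -1.18 for Ddx58, -1.15 for Irgm1, -1.04 for Irf9, -0.84 for Ifit2 and -0.63 for Stat2. All 9 genes rose without Dox.

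Among globins it was -1.81 for Hbb-bs, -1.46 for Hba-x, -1.33 for Hba-a1, -1.21 for Hbb-y and -0.94 for Hbb-bh1, and among other red cell genes -1.52 for Trim10, -1.20 for Ank1, -1.12 for Alas2, -0.87 for Klf1 and -0.69 for Sptb. Hbb-bs, Hba-x, Hba-a1 and Ank1 fell with Dox and rose without it.

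Among genes of white blood cells and platelets it was -1.82 for Fcer1g, -1.75 for Rac2, -1.65 for Itgam, -1.38 for Coro1a, -1.20 for Ncf1, -1.02 for Cx3cr1, -0.74 for Laptm5, -0.73 for Mpo, -0.66 for Csf2rb, -0.62 for Ikzf1, -0.57 for Lcp1, -0.51 for Plek, -0.49 for P2ry1 and -0.88 for the protease gene Ctsc. Mpo and Ikzf1 fell with Dox and rose without it.

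Among metabolic and stress genes it was -1.48 for Slc30a10, -1.24 for Slc16a3, -1.02 for Trib3, -0.99 for Smox, -0.69 for Pfkl, -0.66 for Vldlr, -0.57 for Ndrg1, -0.50 for Slc39a8, -0.47 for Mthfd1l, -0.45 for Mthfd2, -0.40 for Lipa, -0.39 for Dhcr7 and -0.34 for Lss, and for the proliferation gene Mki67 it was -0.34. Among matrix and vascular genes it was -4.22 for Lum, -0.55 for Postn, -0.45 for Col1a2, -0.35 for Col1a1, -0.30 for Nrp1 and -0.91 for Kctd12. Lum, a collagen-binding proteoglycan, had 0.23 and 0.0718 CPM at 24 h with Dox and 1.17 and 0.642 CPM at 12 h with Dox, against 1.86 and 2.43 CPM at 24 h and 1.28 and 0.273 CPM at 12 h without Dox, so its value rests on very low counts. Its call with Dox was lost without either Dox 24 h library or Dox 12 h replicate 1 (adjusted p up to 0.344).

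A higher course under Dox was found for Frmpd1 (1.39), Vgf (0.79), Nkx1-2 (0.67), Syt13 (0.64), Zik1 (0.63), Dph5 (0.58), Ctla2a (0.55), Gja5 (0.46), Sat1 (0.43), mt-Co1 (0.37), Nes (0.37), Gja4 (0.35) and Fat1 (0.33).

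Of all 66 genes, 26 were called in each of the 8 fits that left out 1 library of the 4 groups. The other 40 lost the call in 1 or more, and the highest adjusted p of these fits is given in brackets. Lost in 1 of the 8 fits were Col1a1 (0.108), Csf2rb (0.0855), Fcer1g (0.106), Hbb-bh1 (0.0693) and Ifit2 (0.0525). Lost in 2 of the 8 fits were Ank1 (0.107) and P2ry1 (0.0713). Lost in 3 of the 8 fits were Ikzf1 (0.202), Lipa (0.0785), Lum (0.311), Ncf1 (0.365), Ndrg1 (0.0836) and Slc30a10 (0.199). Lost in 4 of the 8 fits were Ctla2a (0.107), Lcp1 (0.163), Nkx1-2 (0.176), Pfkl (0.2), Slc16a3 (0.187) and Slc39a8 (0.321). Lost in 5 of the 8 fits were Dhcr7 (0.259), Dph5 (0.215), Fat1 (0.166), Gja4 (0.336), Gja5 (0.543), Lss (0.246), Mki67 (0.386), Mthfd1l (0.419), Mthfd2 (0.135), Nes (0.161), Syt13 (0.413), Zik1 (0.313) and mt-Co1 (0.148). Lost in 6 of the 8 fits were Klf1 (0.427), Mpo (0.287), Nrp1 (0.27), Sat1 (0.22), Trim10 (0.419), Vgf (0.37) and Vldlr (0.255). Lost in 7 of the 8 fits was Cx3cr1 (0.187).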

How the results depend on the processing

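The 2121 calls with Dox were 1659 with DESeq2, 1848 from the 4 Dox libraries alone and 2140 with the replicate number as a block. Deviations of replicate 1 from the group mean had a correlation of -0.0352 between the 2 Dox groups. Over all pairs of groups it ran from -0.168 to 0.169, the highest between 24 h with Dox and 12 h without. Whether replicate numbers pair the samples was thus not settled. The block gave 3427 calls without Dox and 215 for the difference. Rises with Dox were 707 with limma on log2(RPKM + 0.5) and 667 on log2(RPKM + 0.1). Both gave 8 p53 rises, 2 globin falls, 2 hypoxia falls, 9 interferon rises and 0 mitochondrial rises; DESeq2 gave 5 hypoxia falls and 3 mitochondrial rises. The 185 differences were 356 without a filter on low counts (95 higher, 261 lower; 13 pan-haematopoietic and 11 RUNX1 target genes; 26.7% higher, against 15.7%), 66 with limma and a pseudocount of 0.5 (5 higher, 61 lower; 5 pan-haematopoietic, 3 globin and 3 RUNX1 target genes) and 6 with 0.1 (0 higher, 6 lower; 2 interferon, 0 pan-haematopoietic, 1 globin, 0 RUNX1 target and 0 myeloid genes); DESeq2 gave 128, with 3 myeloid genes. No other setting on all replicates moved these counts by over 1.5 times, and the cause of these moves was not tested. Gfi1 turned sign under upper-quartile scaling (0.0039) and when 1 library was left out (range -0.14 to 0.073). Gfi1b turned sign when 1 library was left out (range -0.46 to 0.056) and was called lower under 1 of the 15 alternatives.

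Leaving out 1 library gave 1052 to 1985 calls with Dox (585 to 1084 higher, 467 to 901 lower), 2103 to 2604 without Dox (1183 to 1387 higher, 920 to 1217 lower) and 65 to 274 differences (4 to 70 higher, 56 to 204 lower). With Dox the counts were 14 to 17 for cholesterol, 5 to 8 for endothelial, 14 to 20 for G1/S, 20 to 21 for G2/M, 3 to 5 for globin, 1 to 16 for hypoxia, 8 to 13 for interferon, 5 to 11 for lysosome, 2 to 6 for mitochondrial and 7 to 13 for p53 genes. For the difference they were 4 to 6 globin, 13 to 20 interferon, 1 to 6 myeloid, 4 to 12 pan-haematopoietic and 3 to 11 RUNX1 target genes. Of 162 named genes called with Dox, 85 were called under every alternative and 0 turned sign; of 66 with a called difference, 45 were called in every edgeR and DESeq2 fit on all replicates and 5 under every alternative. RLE and upper-quartile scaling moved the median change by -0.000117 and 0.0168. DESeq2 gave no adjusted p for 1786, 893 and 1488 genes in the 3 comparisons. Named genes whose change with Dox it did not call include Sox7, Hba-a1, Isg15, Klf1, Mpo, Ncf1, Hey1, Egr1, Il4ra, Tmcc2 and Nlrc5. Also among them are Pfkl, Slc16a3, Smox, Ctla2a, Lum, Ankrd37, Gdap10, Cldn7 and Ndrg1. The differences it did not call include those of Hbb-bh1, Gja5, Cx3cr1, Ctla2a, Dph5, Mki67 and mt-Co1. Depth limits the genes of low count named above, such as Nlrc5, Lum and Ankrd37.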

Other observations

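Some genes outside the lists had courses that differed between the 2 arms, and of these Kctd12, Smox and Ctla2a moved in opposite directions. These genes were chosen after their values were seen. Kctd12, a subunit that shapes GABA-B receptor signalling, had 91.2 and 83.1 CPM at 24 h with Dox and 122 and 107 CPM at 12 h with Dox (-0.39 ± 0.07, adjusted p = 0.000126 by edgeR), against 154 and 166 CPM at 24 h and 111 and 112 CPM at 12 h without Dox (0.52 ± 0.07; difference -0.91 ± 0.09, adjusted p = 7.51e-07). The groups of each arm did not overlap, and the difference was called in all 8 fits that left out 1 library. Smox, spermine oxidase, fell with Dox (-0.31 ± 0.10) and rose without it (0.68 ± 0.10; difference -0.99 ± 0.14, adjusted p = 8.64e-05), and Sat1, the enzyme that acetylates spermine for breakdown, had 0.43 ± 0.07 with Dox (adjusted p = 0.000111) and 0.00 ± 0.07 without (adjusted p = 0.998; difference 0.43 ± 0.10, adjusted p = 0.0287). The polyamine enzymes thus differed in opposite directions. The call of Smox with Dox was lost without Dox 24 h replicate 2 or Dox 12 h replicate 1 (adjusted p up to 0.343), and the difference of Sat1 unless the library left out was Dox 12 h replicate 2 or untreated 12 h replicate 1 (adjusted p up to 0.22).

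Ctla2a, a cathepsin inhibitor, was the 1 gene called higher with Dox and lower without. It had 147 and 128 CPM at 24 h with Dox and 112 and 114 CPM at 12 h with Dox (0.29 ± 0.09), against 96.7 and 96.3 CPM at 24 h and 123 and 110.2 CPM at 12 h without Dox (-0.26 ± 0.09; difference 0.55 ± 0.12, adjusted p = 0.0149). Neither its change with Dox nor its difference was called by DESeq2. Its call with Dox was lost without Dox 24 h replicate 1 or either Dox 12 h library (adjusted p up to 0.305), and that of the difference without Dox 24 h replicate 1, Dox 12 h replicate 1 or either untreated 24 h library (adjusted p up to 0.107). Fat1, a giant cadherin, rose in both arms and more with Dox: it had 732 and 811 CPM at 24 h and 513 and 540.3 CPM at 12 h with Dox, against 603 and 609.8 CPM at 24 h and 511 and 531 CPM at 12 h without (difference 0.33 ± 0.07, adjusted p = 0.0129), lost unless the library left out was Dox 24 h replicate 1, Dox 12 h replicate 2 or untreated 12 h replicate 1 (adjusted p up to 0.166). Slc39a8, a zinc and manganese importer, fell with Dox (-0.45 ± 0.08, adjusted p = 0.000339), as did the manganese exporter Slc30a10 described above, and Slc39a8 had 0.06 ± 0.08 without Dox (adjusted p = 0.685; difference -0.50 ± 0.12, adjusted p = 0.0246). Mthfd1l, of the mitochondrial folate cycle, fell with Dox (-0.36 ± 0.08) and had 0.11 ± 0.08 without (difference -0.47 ± 0.11, adjusted p = 0.0289). The differences of Slc39a8 and Mthfd1l were lost without Dox 24 h replicate 2, Dox 12 h replicate 1, untreated 24 h replicate 2 or untreated 12 h replicate 2 (adjusted p up to 0.321) and unless the library left out was Dox 24 h replicate 1, Dox 12 h replicate 2 or untreated 12 h replicate 1 (adjusted p up to 0.419).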
